A study of Mus musculus with 564 samples.

Results

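The comparison set macrophages stimulated with lipopolysaccharide (LPS) for 4 h directly against macrophages stimulated with interleukin 4 (IL-4) for 4 h, both without a kinase inhibitor. It held 4 of the 564 libraries of the series, 2 per stimulus, and was chosen from the treatment labels. Earlier results of these data were known when it was chosen. The cells were BMDMs, bone marrow-derived macrophages grown from the marrow of wild-type male C57/BL6 mice, and all had a 1 h pre-treatment with DMSO, the vehicle of the kinase inhibitors, before 10 ng/mL of LPS or 10 ng/mL of IL-4 was added. Acetylation of histone H3 at lysine 27 (H3K27ac), which marks promoters and enhancers in use, was read by ChIP-seq at the same 59190 cis-regulatory elements (CREs) in every library. No unstimulated (UT) library entered the contrast, so a difference says which stimulus gave the higher acetylation and not which of them changed it. The 2 UT libraries of DMSO-treated cells, the 12 stimulated DMSO libraries of 30 min, 1 h and 2 h, and 106 libraries of cells treated with 1 of 52 clinical kinase inhibitors (CKIs) and stimulated for 4 h are given only beside it.

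LPS, a component of the outer membrane of Gram-negative bacteria, is sensed by Toll-like receptor 4 (TLR4), which activates NF-kB and AP-1 factors and, through IRF3 and secreted interferon, interferon-stimulated genes. IL-4 acts through its receptor and Janus kinases on STAT6, a factor that induces Arg1, Retnla, Mrc1 and other genes of the alternative activation program. Enhancers used by either pathway gain H3K27ac when transcription factors recruit acetyltransferases to them, and lose it by deacetylation.

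Each value is a normalized read count of 1 CRE in 1 library, on the authors' scale. CREs differ in width, so levels are compared between libraries and not between CREs. The 4 libraries summed to between 6102282 and 6873668 after this scaling, which does not give the depth. From the value of 1 read, seen as the even spacing of the values in each library, they held an estimated 3621532 to 5071745 reads in CREs. Replicate agreement was measured over CREs with a mean of at least 10 across the 16 stimulated DMSO libraries, so the lowest CREs are left out. Over these CREs, replicates correlated with r = 0.967 after LPS and 0.973 after IL-4 on the log2 scale. The SD of their log2 difference was 0.423 and 0.394. The labels do not say whether replicates came from separate mice or cultures, so the p-values rest on a spread between libraries that may be technical. This spread was estimated over the 16 stimulated DMSO libraries of all times and shared in part between CREs. Promoter CREs of 14 macrophage lineage genes summed to between 7949 and 9469 normalized reads per library, and those of 6 genes of other hematopoietic or stromal cells to between 64 and 149. These sums run over 15 and 6 CREs and are not compared with each other. Only 6 of the 26 listed genes of other cells had a promoter CRE. The scaled sums of 16 promoter CREs of ubiquitously expressed genes lay between 7482 and 7767.

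LPS and IL-4 left different acetylation landscapes at 4 h. A CRE was called when limma gave a Benjamini-Hochberg adjusted p under 0.01 and the log2 difference, on log2(value + 5), was over 1 in size. Of the 59190 CREs, 10584 (17.9%) were higher after LPS and 8941 (15.1%) were higher after IL-4. Together these were 33.0% of all CREs, 54.2% of them on the LPS side, and the median difference over all CREs was 0.00. The LPS share of calls was 50% under quantile normalization and 51.7% with libraries centred on their median, so neither side is read as larger. In all called CREs but 2, both libraries of one stimulus lay above both of the other, which the calling from these libraries nearly fixes. Over all 59190 CREs, called or not, LPS lay above IL-4 in this way at 21238 and IL-4 above LPS at 21109. The CREs higher after LPS held 36.0% and 34.6% of all normalized reads in the LPS libraries and 8.99% and 9.21% in the IL-4 libraries. Those higher after IL-4 held 27.8% and 27% of the reads in the IL-4 libraries and 7.2% and 6.93% in the LPS libraries. Large differences were more often toward LPS, with 1676 called CREs over 3 on the log2 scale against 629 below -3. The median called difference was 1.84 toward LPS and -1.60 toward IL-4.

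**Figure D1:**
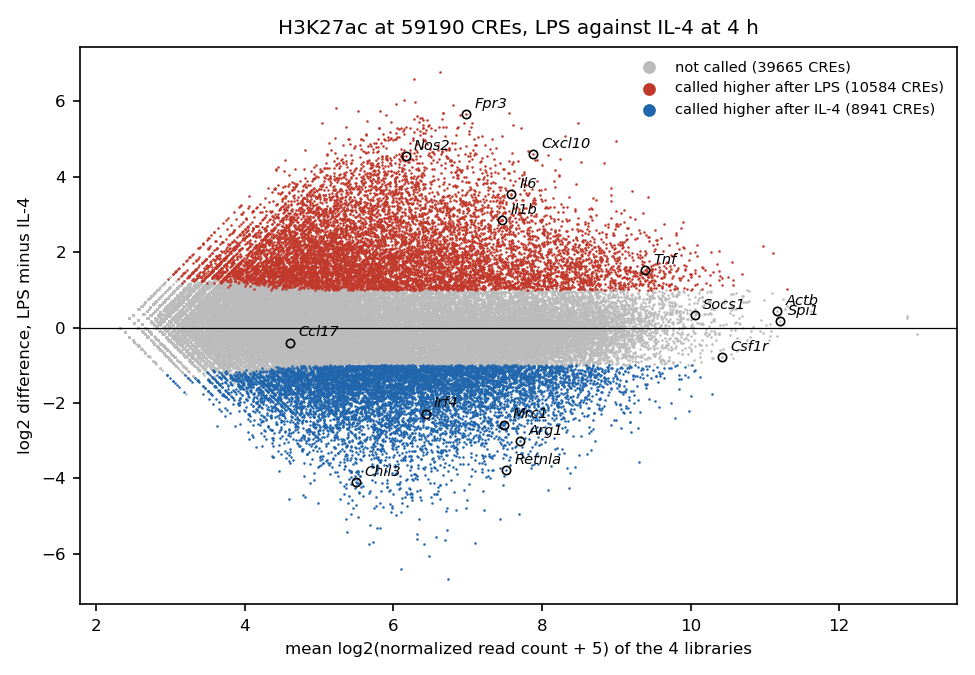
Log2 difference between LPS and IL-4 at 4 h (vertical axis) against the mean log2(normalized read count + 5) of the 4 libraries (horizontal axis), 1 point per CRE, with CREs called higher after LPS in red, higher after IL-4 in blue and not called in grey. Circles mark the CRE closest to the start of named genes, with Nos2 at 4.54 and Cxcl10 at 4.60 on the LPS side, Arg1 at -3.02 and Retnla at -3.78 on the IL-4 side, and Spi1 (0.16), Actb (0.44) and Socs1 (0.34) near 0.

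Sequences are shown first for 8 CREs with large differences, because the recognition sequence of the factors downstream of each receptor can be read in them. Each is the central 300 bases of the CRE on the plus strand of mm10, in lower case, with matches in capitals to 3 motifs searched on both strands. These were the STAT6 motif TTCNNNNGAA, the NF-kB motif GGGNNTTTCC (GGAAANNCCC on the other strand), and the interferon-stimulated response element (ISRE) GAAANNGAAA (TTTCNNTTTC on the other strand), where N is any base. The 4 CREs higher after IL-4, near March10, Msx3, Vrk1 and Socs1, each hold 1 STAT6 match, and the one near Vrk1 also holds an NF-kB match.
March10 (chr11:105439523-105439822): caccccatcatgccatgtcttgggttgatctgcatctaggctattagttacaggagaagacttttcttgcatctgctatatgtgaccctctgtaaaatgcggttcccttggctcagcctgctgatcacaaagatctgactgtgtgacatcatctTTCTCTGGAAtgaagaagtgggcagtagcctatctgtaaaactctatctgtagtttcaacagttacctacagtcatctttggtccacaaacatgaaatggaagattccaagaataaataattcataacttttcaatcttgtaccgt
Msx3 (chr7:140051475-140051774): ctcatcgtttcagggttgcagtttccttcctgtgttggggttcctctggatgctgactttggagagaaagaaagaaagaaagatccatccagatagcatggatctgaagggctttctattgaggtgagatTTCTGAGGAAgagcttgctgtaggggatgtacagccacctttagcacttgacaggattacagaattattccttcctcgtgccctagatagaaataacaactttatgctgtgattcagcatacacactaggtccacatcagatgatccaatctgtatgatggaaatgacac
Vrk1 (chr12:105967042-105967341): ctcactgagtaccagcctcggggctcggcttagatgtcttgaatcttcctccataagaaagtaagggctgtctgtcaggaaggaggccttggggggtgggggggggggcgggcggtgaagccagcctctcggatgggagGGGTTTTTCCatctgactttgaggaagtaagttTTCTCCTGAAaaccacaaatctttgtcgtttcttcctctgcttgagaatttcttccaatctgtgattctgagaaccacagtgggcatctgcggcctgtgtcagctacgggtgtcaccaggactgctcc
Socs1 (chr16:10700265-10700564): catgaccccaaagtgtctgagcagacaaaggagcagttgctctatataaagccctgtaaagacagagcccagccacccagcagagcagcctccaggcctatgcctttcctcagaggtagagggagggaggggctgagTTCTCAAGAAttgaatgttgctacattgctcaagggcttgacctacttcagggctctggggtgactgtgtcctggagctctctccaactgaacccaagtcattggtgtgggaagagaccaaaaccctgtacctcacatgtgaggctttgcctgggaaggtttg
The 4 CREs higher after LPS, near Jak2, Mrpl39, Cmpk2 and Gbp5, hold 1 NF-kB match each in the first 2, 2 ISRE matches near Cmpk2 and 1 ISRE match near Gbp5.
Jak2 (chr19:29176503-29176802): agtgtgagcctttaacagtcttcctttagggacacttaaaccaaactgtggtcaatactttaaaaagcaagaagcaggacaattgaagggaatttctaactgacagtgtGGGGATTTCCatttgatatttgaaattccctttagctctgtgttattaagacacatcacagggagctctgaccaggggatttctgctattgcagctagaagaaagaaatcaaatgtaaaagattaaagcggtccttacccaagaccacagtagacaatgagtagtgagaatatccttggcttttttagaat
Mrpl39 (chr16:84709453-84709752): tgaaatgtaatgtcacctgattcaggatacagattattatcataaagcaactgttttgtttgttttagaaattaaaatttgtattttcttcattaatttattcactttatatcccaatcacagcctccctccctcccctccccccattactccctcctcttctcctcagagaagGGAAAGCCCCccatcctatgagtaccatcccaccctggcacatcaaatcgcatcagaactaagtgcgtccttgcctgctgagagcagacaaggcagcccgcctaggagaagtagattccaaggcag
Cmpk2 (chr12:26464430-26464729): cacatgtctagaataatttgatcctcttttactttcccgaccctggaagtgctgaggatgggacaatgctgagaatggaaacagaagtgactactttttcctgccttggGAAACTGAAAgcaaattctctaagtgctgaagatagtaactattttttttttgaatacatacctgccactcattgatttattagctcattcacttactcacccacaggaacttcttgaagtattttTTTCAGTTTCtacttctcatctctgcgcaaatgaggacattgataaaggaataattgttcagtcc
Gbp5 (chr3:142499081-142499380): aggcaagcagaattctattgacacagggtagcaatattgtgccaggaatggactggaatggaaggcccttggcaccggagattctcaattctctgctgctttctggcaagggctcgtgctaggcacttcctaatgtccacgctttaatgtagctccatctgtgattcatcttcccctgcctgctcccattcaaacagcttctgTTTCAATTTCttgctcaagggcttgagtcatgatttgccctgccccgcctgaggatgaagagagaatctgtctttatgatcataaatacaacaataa
These 8 were picked after their values were seen and because they hold a match, and other CREs of similar difference hold none, such as those near Lmo4, Il1rl2 and Irf4. A match describes the letters and does not show that a factor was bound.

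The CREs shown above differed by over 4 on the log2 scale on the scale of the test. The CRE in an intron of March10, 15.6 kb from its start, had 6 and 0 normalized reads in the LPS libraries and 398 and 351 in the IL-4 libraries (log2 difference -5.67, SE 0.29). At 2.54 kb from the start of Msx3 the values were 13 and 7 after LPS and 738 and 706 after IL-4 (log2 difference -5.63). At the CRE 43.0 kb from the start of Vrk1, which encodes a chromatin kinase, they were 13 and 10 after LPS and 725 and 630 after IL-4. The CRE 75.2 kb upstream of Jak2, the gene of a Janus kinase, had 584 and 435 after LPS and 2 and 5 after IL-4 (log2 difference 5.93, SE 0.29). In each of them, picked for a large difference, the groups did not overlap and were far apart. The UT libraries had 1 and 2 at the Jak2 CRE and 42 and 43 at the Vrk1 CRE, closer to the stimulus with the lower value in both.

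Among the 12 CREs with the largest differences toward LPS, 1 per nearest gene, several lay near genes of the inflammatory response. Saa3, an acute-phase serum amyloid, had a CRE 1.58 kb from its start with 1463 and 1245 after LPS and 19 and 24 after IL-4 (log2 difference 5.68, SE 0.22, adjusted p = 4.50e-21). The CRE at the start of Fpr2 and Fpr3, receptors for formylated peptides, had 935 and 843 after LPS and 10 and 16 after IL-4 (5.65, SE 0.21), and the neighbouring CRE of Fpr1 had 471 and 362 after LPS against 7 and 1. Tnfaip3 encodes A20, an enzyme that ends NF-kB signalling, and its CRE 62.5 kb from the start had 860 and 812 after LPS and 12 and 12 after IL-4. The first place was held by a CRE 82.8 kb from Acaa2 with 1057 and 998 after LPS and 5 and 4 after IL-4 (6.77, SE 0.28). A second CRE in the same region, 50.2 kb from Lipg, an endothelial lipase, had 898 and 812 against 10 and 9. CREs nearest Lmo4, Mrpl39, Jak2, Stk31, Bcl2a1b and Vwa3b completed the set, with differences between 5.69 and 6.02. Bcl2a1b, a survival factor of the BCL2 family, belongs to a duplicated group of genes, and 74.1% of the 51-base words of its CRE occur more than once in mm10, as do 57.7% of those of the CRE near Stk31, so how much of their reads came from another copy was not tested.

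The largest differences toward IL-4 were led by secreted ribonucleases of the angiogenin and eosinophil-associated families on chromosome 14. The CRE 6.75 kb from Ang6 had 1181 and 962 after IL-4 and 11 and 2 after LPS (log2 difference -6.66, SE 0.42, adjusted p = 1.13e-15). Ang5 followed with 740 and 714 against 3 and 10 (-6.06), and Ear14 with 649 and 652 against 11 and 7 (-5.56). A CRE nearest Gm8113, in the same region, had 681 and 578 against 2 and 3 (-6.40). Of the words of the Ang6 CRE 68.6% are repeated in mm10, beside 43.7% for Gm8113, 16.3% for Ang5 and 21.3% for Ear14. Outside this cluster, the CRE at the start of Pan3, a subunit of an mRNA deadenylase, had 1068 and 946 after IL-4 and 29 and 21 after LPS (-5.09, SE 0.17), and none of its words is repeated. A CRE 269 kb from Klf4, whose product is a transcription factor of alternative activation, had 325 and 297 against 2 and 5 (-5.24). The CRE nearest Hhip had 286 and 252 against 0 and 3, and that nearest Enthd1 differed by -5.31. In these CREs, picked for the size of their difference, no library of one stimulus overlapped the other.

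**Figure D2:**
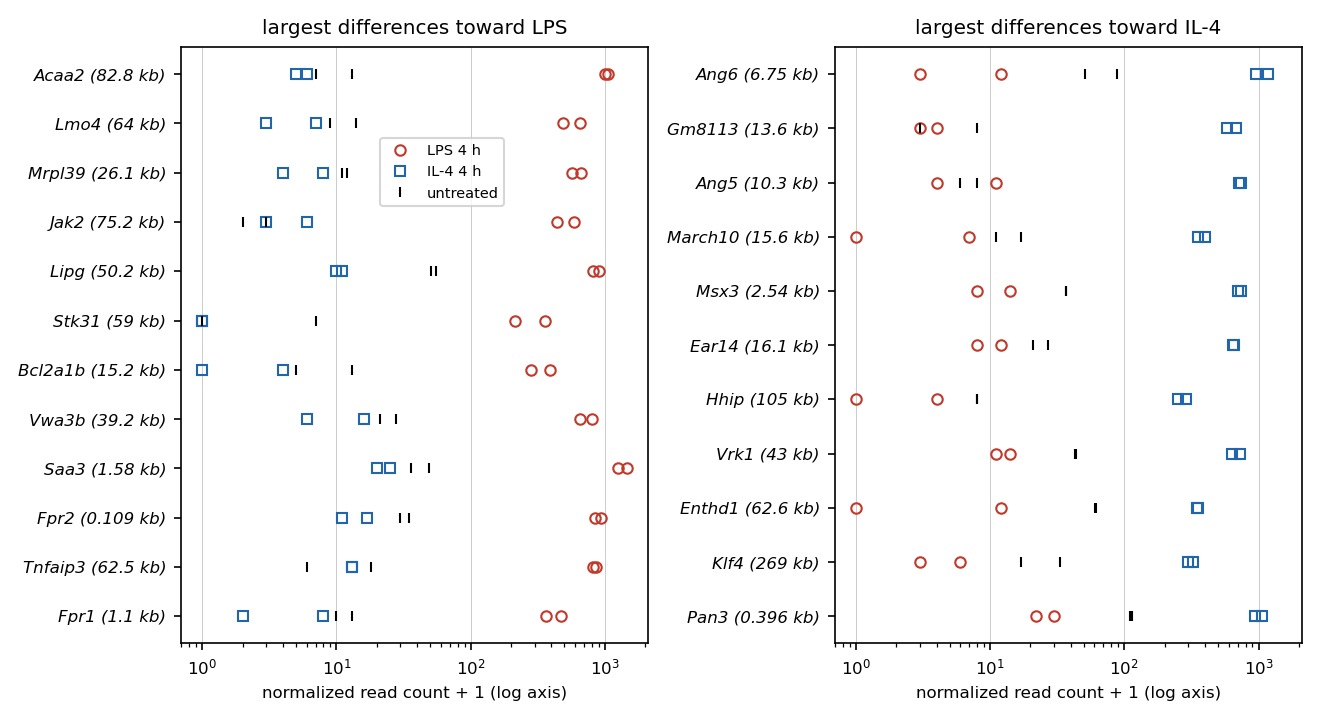
Normalized read counts plus 1 (horizontal log axis) of the CREs with the largest differences toward LPS (12, left) and toward IL-4 (11, right), labelled by nearest gene and distance, with circles for the 2 LPS libraries, squares for the 2 IL-4 libraries and ticks for the 2 UT libraries. In every row the stimuli are separated by more than the distance between replicates and the UT ticks lie below both libraries of the stimulus with the higher value.

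The UT libraries, which no called value used, placed the sides differently. On the scale of the test, with 0 at the level of the stimulus with the lower value and 1 at the higher, the median position of UT was 0.0945 for CREs higher after LPS and 0.758 for CREs higher after IL-4. Of the LPS-higher CREs, 36.1% had UT below the IL-4 level and 31.3% at a position from 0 to 0.25. Of the IL-4-higher CREs, 21.2% had UT at a position over 0.75 and up to 1, and 29.4% above the IL-4 level, while 10.5% had UT below the LPS level. Examples on both sides were Nos2, with UT at 11 and 9 near the IL-4 values of 8 and 12, and Mrc1, with UT at 285 and 279 between LPS (71 and 66) and IL-4 (431 and 435). At the CRE of Gpr146 UT had 1631 and 1526, near the IL-4 values of 1967 and 1861 and far above LPS at 598 and 494. The 2 UT libraries were made without stimulus, and their spread was not used in these positions.

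The CRE closest to the start of each of 33 genes known from LPS or IL-4 responses or from the macrophage lineage was read whatever its result. The genes were chosen with earlier results of these data known, so their call shares are descriptive. Of these, 14 were higher after LPS, 10 were higher after IL-4 and 9 were not called, beside 17.9% and 15.1% of all CREs. Nos2, the inducible nitric oxide synthase, had 370 and 314 after LPS and 8 and 12 after IL-4 at 521 bp from its start (log2 difference 4.54, SE 0.30, adjusted p = 3.30e-15). Arg1, the arginase that competes for the same substrate, had 83 and 56 after LPS and 617 and 564 after IL-4 at 451 bp (-3.02, SE 0.18, adjusted p = 2.25e-16). These opposite directions held across their loci, since all 7 CREs assigned to Nos2 were higher after LPS (2.15 to 5.29) and all 7 assigned to Arg1 were higher after IL-4 (-3.32 to -1.32).

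Of the inflammatory cytokine and chemokine genes, Cxcl10, Il6, Il1b, Tnf and Il12b were higher after LPS at these CREs. Cxcl10, a chemokine for T cells, had 1233 and 1090 after LPS and 45 and 41 after IL-4 (4.60, SE 0.15), and Il6 had 686 and 611 against 51 and 52 (3.53, SE 0.17). Il1b, the gene of interleukin 1 beta, had 505 and 430 against 66 and 56 (2.84), and Tnf had 1227 and 1042 against 361 and 427 (1.51). Il12b, the shared subunit of IL-12 and IL-23, was lower in all libraries, with 32 and 28 after LPS and 3 and 12 after IL-4 (1.58, adjusted p = 0.000121). Its call was lost when pseudocount 20 was used (0.88), when IL-4 replicate 1 was left out (1.04) and when the fit held the 4 libraries of 4 h alone (1.58). The effector enzymes Ptgs2 (cyclooxygenase 2; 2.95) and Acod1 (itaconate synthesis; 2.26) and the inhibitors of signalling Nfkbia (2.82) and Socs3 (2.69) were likewise higher after LPS.

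On the IL-4 side, the resistin-like gene Retnla had 696 and 652 after IL-4 and 35 and 56 after LPS at a CRE 9.93 kb from its start (-3.78, SE 0.18), and 26.5% of the 51-base words of this CRE are repeated in mm10. Ccl24, an eosinophil chemokine, had 179 and 127 against 8 and 10 (-3.48). The mannose receptor Mrc1 differed by -2.58, and Irf4, a transcription factor induced by IL-4, by -2.28 with 187 and 184 against 27 and 43. The CRE closest to Chil3, a chitinase-like protein, lay 54.2 kb away and nearer to Chil4, with 175 and 189 after IL-4 and 5 and 7 after LPS (-4.09). The zinc finger factors Egr2 (-1.55) and Klf4 (-1.13) followed, and the Klf4 call was lost without LPS replicate 1 (-0.89). At the start of Il1rl2, a receptor of the interleukin 1 family, the difference was -2.93, and the neighbouring CRE that holds the IL-4 control region of the study's qPCR had 307 and 276 after IL-4 and 13 and 8 after LPS (-4.27). The LPS control region, in the Fpr2 locus, lay in a CRE with 1417 and 1217 after LPS and 62 and 41 after IL-4 (4.57).

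Several genes of these pathways were not called at their start. Ccl17, a chemokine of alternative activation, had 13 and 20 after LPS and 22 and 24 after IL-4 (-0.40, SE 0.36, adjusted p = 0.377). Pparg differed by -0.66 (SE 0.18) and Cish, a feedback inhibitor of cytokine receptors, by -0.38 (SE 0.12), both under the size limit. The lineage factor Spi1 (PU.1) had 2625 and 2361 after LPS and 2391 and 2068 after IL-4 (0.16, SE 0.07), Gapdh differed by 0.14 and Actb by 0.44. Under quantile normalization Spi1 (-0.25) and Gapdh (-0.0649) changed sign, so no direction is drawn for them. Csf1r, the receptor of macrophage colony-stimulating factor, had 1095 and 1006 after LPS and 1967 and 1649 after IL-4 (-0.78), and passed the size limit under quantile normalization (-1.16).

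Gene lists, chosen with earlier results of these data known, are described beside all CREs, where 17.9% were higher after LPS and 15.1% higher after IL-4. A CRE was assigned to the protein-coding gene with the nearest transcription start. Of 193 CREs of inflammatory cytokine genes, 135 (69.9%) were higher after LPS and 4 (2.07%) higher after IL-4. Their median log2 difference was 1.78, beside 0.00 over all CREs. Edn1, the vasoconstrictor endothelin 1, had 824 and 782 against 19 and 10 at its most different CRE (5.41), and Il18 and Il1rn, the receptor antagonist of interleukin 1, had 4.45 and 4.23. Among 215 CREs of NF-kB subunits and feedback regulators, 142 (66.0%) were higher after LPS and 8 (3.72%) after IL-4 (median 1.70). This list was led by Tnfaip3, Nfkb1 (5.18), the adaptor Traf1 (5.17) and Socs3. Of the 198 CREs of LPS effector enzymes and metabolic genes, 116 (58.6%) were higher after LPS and 11 (5.56%) after IL-4. Those higher after LPS included one of Ptges (5.53), the prostaglandin E synthase. The LPS-induced chemokines had 28 of 59 CREs (47.5%) higher after LPS and 3 (5.08%) after IL-4. They were led by Ccl5 with 2937 and 2713 against 88 and 86 (4.94, SE 0.13).

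Interferon-stimulated genes differed most uniformly at their promoters. Of 141 CREs, 85 (60.3%) were higher after LPS and 3 higher after IL-4 (median 1.44), and of 36 promoter CREs of 34 genes, 32 (88.9%) were higher after LPS and 0 higher after IL-4, where 7.13% and 10.5% of all promoter CREs were. Away from promoters, a CRE 4.62 kb from Cmpk2, a nucleotide kinase next to Rsad2, had 413 and 436 against 13 and 7 (4.87), one 2.33 kb from Gbp5, a guanylate-binding protein, had 513 and 403 against 17 and 10 (4.66), and Mx1, an antiviral GTPase, 570 and 563 against 24 and 15 (4.57). The promoter of Rsad2 (viperin) differed by 1.75 and that of Irf7, a factor that amplifies interferon production, by 1.49 with 1017 and 984 against 362 and 346.

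Alternative activation effectors formed the opposite picture, with 99 of 166 CREs (59.6%) higher after IL-4 and 10 (6.02%) higher after LPS (median -1.33). The shares over all CREs were 15.1% and 17.9%. Mgl2, a C-type lectin, had 480 and 461 after IL-4 and 11 and 21 after LPS (-4.54). Among the 10 CREs higher after LPS was one 4.73 kb from Slamf1, a receptor of lymphocytes and macrophages, with 592 and 474 after LPS and 10 and 5 after IL-4 (5.45). The ribonuclease and angiogenin cluster had 24 of 31 CREs (77.4%) higher after IL-4 and 0 higher after LPS (median -3.58). For the IL-4 receptor pathway and STAT6-linked regulators, 113 of 334 CREs (33.8%) were higher after IL-4, beside 15.1% of all CREs, and 58 (17.4%) after LPS, near the 17.9% of all CREs (median -0.48). The CREs with the largest differences of Irf4 (-4.86), Klf4 (-5.24) and Socs1 (-4.66) were higher after IL-4, and that of Jak2 (5.93) after LPS.

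The remaining lists are read against 17.9% of all CREs higher after LPS and 15.1% higher after IL-4. Costimulation and antigen presentation genes had 26 of 79 CREs (32.9%) higher after LPS and 12 (15.2%) after IL-4, the latter near the share of all CREs. Cd40 (3.52), Icosl (2.60) and Tnfsf4 (OX40 ligand; 4.3) were on the LPS side and Cd74, the invariant chain of MHC class II, on the IL-4 side (-2.99). The AP-1, EGR and MAPK feedback genes had 78 (29.0%) and 46 (17.1%) of 269, with Batf (4.54) and the phosphatases Dusp2 (4.45) and Dusp16 (4.42) against Spry1 (-4.94), an inhibitor of receptor tyrosine kinase signalling. Receptors of microbial products had 42 (32.1%) and 15 (11.5%) of 131, led by the peptidoglycan sensor Nod1 (3.34) and Tlr1 (3.08), while a CRE 453 kb from Cd180, a TLR4 homologue, was higher after IL-4 (-3.0). Lysosome genes had 14 (15.2%) and 16 (17.4%) of 92, both near the shares of all CREs. CREs near Lamp1 (-2.28) and Lamp2 (4.88, with 33.3% of its words repeated) were called in opposite directions. Lipid handling genes had 25 (16.8%) and 20 (13.4%) of 149, also near the shares of all CREs, with called CREs near the scavenger receptor gene Msr1 (3.55) and the cholesterol exporter gene Abca1 (3.07). Macrophage lineage genes had 86 (32.6%) and 46 (17.4%) of 264 at any distance and 36 (22.9%) and 34 (21.7%) of 157 within 50 kb, and their leading CREs lay 309 kb from Maf (4.74), 56.4 kb from Mitf (4.03), 259 kb from Runx1 (3.88) and 3.59 kb from Cebpb (3.55). Assignment to a gene rests on distance alone and does not show that the CRE acts on it. Of 16 promoter CREs of ubiquitously expressed genes 0 were called, while distal CREs near Ywhaz (3.16) and Actb (2.21) were higher after LPS and one near Eef2 (-1.48) after IL-4, a call that was lost without LPS replicate 2 (-0.99). Genes of other cell types had 8 (18.6%) and 12 (27.9%) called of 43, among them a CRE 29.5 kb from the fat cell gene Adipoq, with 345 and 340 after IL-4 and 11 and 7 after LPS (-4.65), and a CRE of low value near Cd8a (21 and 10 against 2 and 0), which lost its call with pseudocount 20 (0.74), without LPS replicate 1 (1.34) and without IL-4 replicate 2 (1.5).

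**Figure D3:**
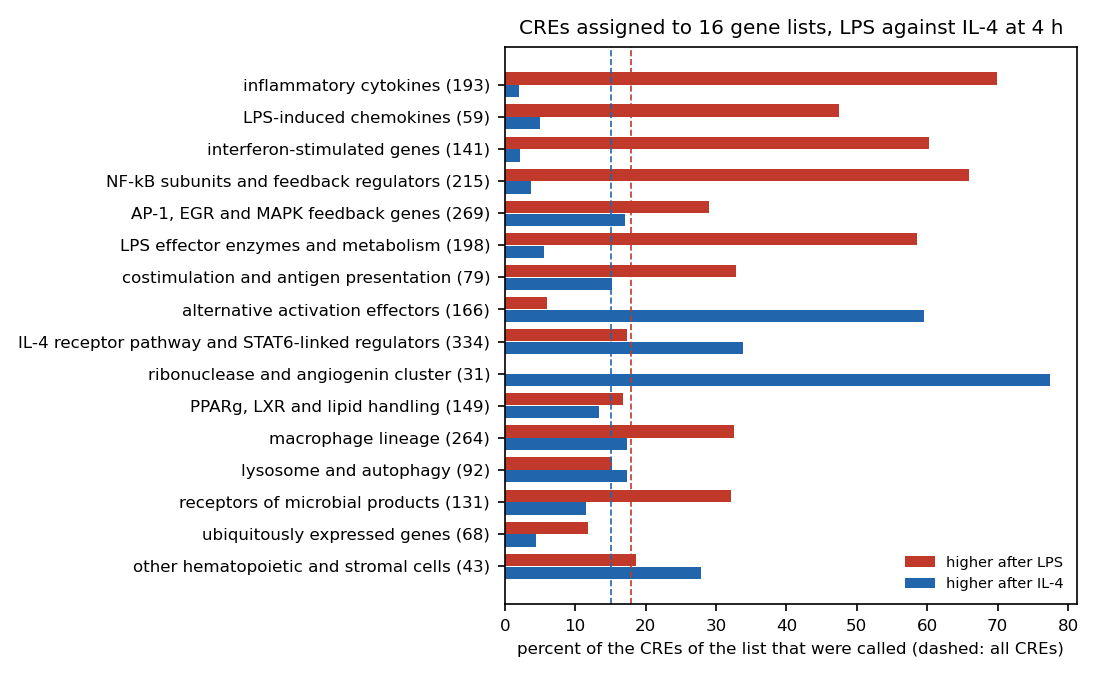
Percent of the CREs assigned to each of 16 gene lists (number of CREs in brackets) that were called higher after LPS (red bars) or after IL-4 (blue bars), with dashed lines at 17.9% and 15.1% for all CREs. The 5 lists of the LPS response reach 47.5% to 69.9% in red with 2.07% to 5.56% in blue, and the alternative activation and ribonuclease lists reach 59.6% and 77.4% in blue.

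Called CREs were mostly distal. Of 11393 CREs with their centre within 1 kb of a transcription start, 812 (7.13%) were higher after LPS and 1198 (10.5%) after IL-4. Beyond 200 kb, the shares were 24.9% and 15.8% of 1930 CREs, and between these limits the LPS share rose with each step of distance, from 18.7% at 1 to 10 kb to 22.7% at 50 to 200 kb. The SD of the log2 difference was 0.842 at promoters and 1.49 at 50 to 200 kb. By level, the 11838 CREs of lowest mean value (up to 12.8) had 4.38% and 1.61% called, and the 11838 with means from 70.5 to 167.8 had 22.6% and 23.8%. On every autosome both directions were found, from 14.4% to 23.3% toward LPS and 12.5% to 16.2% toward IL-4, with chromosome 16 highest toward LPS.

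Neighbouring CREs moved together. Of 6519 pairs of successive called CREs up to 10 kb apart, 96.7% were called in the same direction, and the share fell to 80.8% at 10 to 30 kb, 66.6% at 30 to 100 kb and 51.7% beyond 300 kb, where the shares of calls alone give 50.4%. A run was a series of successive CREs of the table that were all called in 1 direction. The longest toward LPS held 33 CREs over 339.9 kb assigned to Lpp (chr16:24594952-24934803, median 2.56), 29 CREs over 246.4 kb around Psma6 and Nfkbia (chr12:55314645-55561090, median 2.82) and 27 CREs over 180.6 kb assigned to Tnfaip3 (chr10:18942612-19123183, median 2.65). In the Nfkbia run the largest difference was in an intron of Psma6, at 567 and 476 after LPS and 8 and 5 after IL-4 (5.52). Among the longest toward IL-4 were 17 CREs over 162.0 kb assigned to Mthfs (median -2.19) and 16 CREs over 98.8 kb in the Cd300 gene family (chr11:114884068-114982868, median -1.69). Cd300lb, a receptor of myeloid cells, had the largest difference there, with 578 and 482 after IL-4 and 59 and 54 after LPS (-3.12). The CREs of the table did not overlap each other, but signal from 1 broad acetylated region can fall in several of them.

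The following loci show how the directions were laid out along the genome. At the angiogenin and ribonuclease genes, 2 blocks on chromosome 14 carried the IL-4-higher CREs. The first, around Ang5, Ang6 and Ear2 (chr14:43952707-44105117), had 12 called CREs between -6.66 and -1.12, and the second held Ang, Ang2, Ear14 and Rnase2a. In the second block the CRE of Ang2 had 1210 and 1081 after IL-4 and 37 and 28 after LPS (-4.95, SE 0.17) and that of Rnase2a 632 and 594 against 17 and 16 (-4.84). Of the CREs of Rnase2b in the same block, one had 315 and 340 after IL-4 and 16 and 5 after LPS (-4.52) and the other 318 and 333 after IL-4 and 397 and 319 after LPS (0.13, adjusted p = 0.443). The CRE over Ang, 8814 bp wide, had 2228 and 2086 against 470 and 458 (-2.20).

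Socs1 encodes an inhibitor of Janus kinases and is a known target of both pathways. Its promoter CRE had 1103 and 1286 after LPS and 917 and 968 after IL-4 (0.34, SE 0.09), all above UT at 251 and 274. Of the 11 CREs assigned to it, 9 were nevertheless higher after IL-4, and these included the CRE 85.1 kb downstream whose sequence with the STAT6 match is shown above, at 468 and 448 after IL-4 and 11 and 16 after LPS (-4.66, SE 0.32). Its neighbour at 82.1 kb had 1259 and 1071 after IL-4 and 103 and 112 after LPS (-3.37). The 8 CREs between 30.5 and 90.7 kb differed by -4.66 to -1.10.

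In a window from upstream of Jak2 to past the start of Pdcd1lg2 (chr19:29156973-29470928), 13 of 29 CREs were higher after LPS and 5 higher after IL-4. Over all CREs the shares were 17.9% and 15.1%, the latter near the IL-4 share of this window. The CREs furthest upstream of Jak2 were higher after LPS, up to the 5.93 given above, and 2 nearer ones were not called (-0.96 and -0.10). Upstream of Cd274, one CRE of Plgrkt was higher after IL-4 (-1.05) and another, closer to Cd274, was higher after LPS (1.68). Cd274 encodes PD-L1, a ligand that restrains T cells, and its promoter CRE had 1262 and 1370 after LPS and 495 and 473 after IL-4 (1.43, adjusted p = 1.65e-13). Pdcd1lg2 encodes PD-L2, the other ligand of the same receptor, and 43.4 kb further on its start had 38 and 26 after LPS and 300 and 267 after IL-4 (-2.98, SE 0.25). All 7 CREs assigned to Pdcd1lg2 had negative differences, from -2.98 to -0.47, and 4 of them were called. UT was at 6 and 8 at the start of Pdcd1lg2.

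Motif matches in the central 300 bases separated the sides of the contrast. Among the 47797 distal CREs (centre over 1 kb from a start), 10.1% held the STAT6 motif, 3.06% the NF-kB motif and 5.55% the ISRE. In the 1000 distal CREs with the largest difference toward IL-4 the STAT6 share was 37.9%, beside 11.7% in the 1000 with the largest difference toward LPS. For NF-kB the shares were 1.0% and 10.0%, and for the ISRE 3.6% and 15.4%. AP-1 (TGANTCA) matches were frequent on both sides, at 17.4% and 26.1% with 23.6% of all distal CREs, and PU.1 (GAGGAAGT) matches were at 10.6% and 6.80% with 10.4% of all. GAS, the related motif with a spacer shorter by 1 base (TTCNNNGAA), was at 12.6% and 14.6% with 10.2% of all distal CREs. C/EBP (TTGCNNAA) was at 16.5% and 21.4%, the PU.1-IRF composite EICE (GGAANNGAAA) at 7.70% and 7.0%, the E-box (CACGTG) at 5.0% and 3.10%, and KLF (GGGTGTGG) at 4.00% and 2.30%. EGR (GCGTGGGCG) matches were in 1 CRE of the top IL-4 set and 0 of the top LPS set.

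Read the other way, 1435 of the 4831 distal CREs with a STAT6 match (29.7%) were higher after IL-4, beside 14.7% of those without, and 17.9% were higher after LPS, beside 20.7%. Where the central 300 bases held 2 or more STAT6 matches, 160 of 301 (53.2%) were higher after IL-4 and the median difference was -1.22. Of 1462 distal CREs with an NF-kB match 44.3% were higher after LPS, and of 2654 with an ISRE 38.1%, beside 19.7% and 19.4% of those without. With both, 39 of 72 were higher after LPS and 3 after IL-4. Across 20 bins of distal CREs ranked by difference, the STAT6 share fell from 30.5% in the bin furthest toward IL-4 to 14.8% in the next and stayed between 6.70% and 11.6% in the other 18. These are shares of CREs and carry no test. The motifs overlap in letters, and 4.42% of STAT6 matches, 5.73% of NF-kB matches and 7.44% of ISRE matches in the central 300 bases of all CREs shared a base with a match of another motif, most often PU.1 for STAT6, GAS for NF-kB and EICE for the ISRE. Base composition moved with the ranking, since the mean GC content was 44.3% in the top LPS set, 46.5% in the top IL-4 set and 47.2% in all distal CREs, and its part in the motif shares was not tested.

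**Figure D4:**
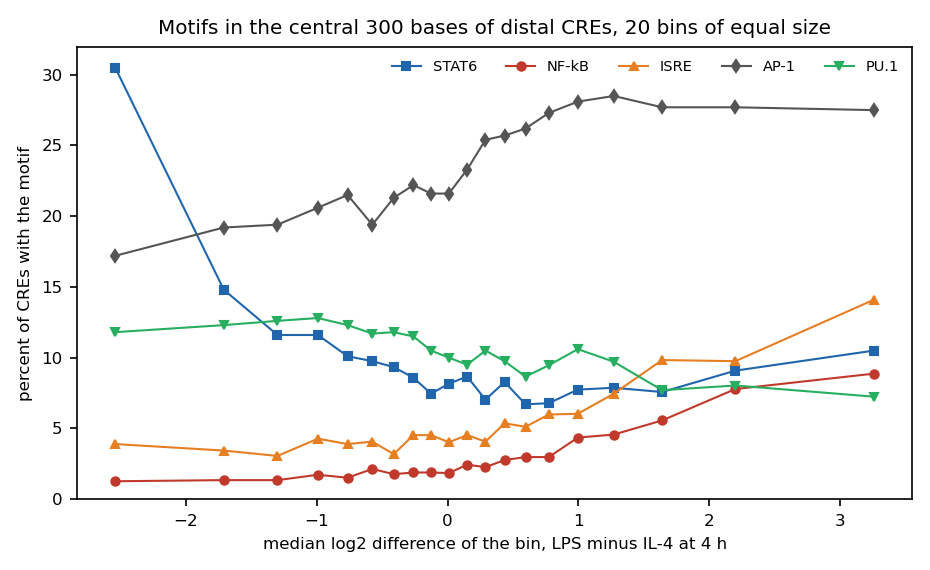
Percent of distal CREs whose central 300 bases hold a match to 5 motifs (vertical axis) in 20 bins of 2389 or 2390 CREs ranked by log2 difference, placed at the median difference of the bin (horizontal axis, LPS minus IL-4 at 4 h). STAT6 stands at 30.5% in the leftmost bin, NF-kB rises from 1.26% to 8.87% and the ISRE from 3.89% to 14.1% toward the right, and AP-1 from 17.2% to 27.5%.

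The libraries of earlier times, which are separate samples, show when these differences were present. At 30 min limma called 6302 CREs (10.6%) higher after LPS and 8477 (14.3%) higher after IL-4, at 1 h 9313 (15.7%) and 8387 (14.2%), and at 2 h 11343 (19.2%) and 9779 (16.5%). Under quantile normalization the LPS share of calls at 30 min was 49.7% in place of 42.6%. It was then 50.2% at 1 h and 49.1% at 2 h, so no change of the larger side with time is read. Of the CREs higher after LPS at 4 h, 36.8% were already called in that direction at 30 min, 61.2% at 1 h and 81.1% at 2 h. For those higher after IL-4 the shares were 52%, 62.6% and 76.4%. The earlier and later contrasts were fitted together but share no library. Over the IL-4-higher CREs the median difference was -1.08 at 30 min and -1.60 at 4 h, and over the LPS-higher CREs 0.71 and 1.84. Since the CREs were chosen at 4 h, a larger difference at 4 h is partly set by the choice.

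The change of the difference from 30 min to 4 h was tested itself. It was called upward, toward LPS, at 7180 CREs (12.1%) and downward, toward IL-4, at 3196 CREs (5.4%), and under quantile normalization at 6130 and 4866, a share of upward calls of 55.7% in place of 69.2%. Nos2 had a difference of 0.08 at 30 min, 2.62 at 1 h, 4.37 at 2 h and 4.54 at 4 h (change 4.46, SE 0.42). Il6 (0.48 at 30 min, 3.53 at 4 h) and the CRE of Fpr2 and Fpr3 (1.20 and 5.65) also had called upward changes. Nfkbia was at 2.46 by 30 min and 2.82 at 4 h, and its change was not called. Il12b was highest at 1 h (4.18) and at 1.58 by 4 h. Arg1 differed by -3.72 at 30 min and -3.02 at 4 h, Mrc1 by -2.19 and -2.58, both without a called change, whereas Irf4 (-0.36 and -2.28) and Egr2 (0.03 and -1.55) changed toward IL-4.

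At 431 CREs the direction turned from IL-4 at 30 min to LPS at 4 h, called at both times, and at 51 it turned the other way. Irf7 was one of them, with a difference of -1.21 at 30 min, -0.36 at 1 h, 0.92 at 2 h and 1.49 at 4 h (change 2.69, SE 0.16). The Socs1 promoter went from -2.57 to 0.34, a change of 2.90 (SE 0.13), though it was not called at 4 h. At 4 h both CREs were above UT after both stimuli, with Irf7 at 228 and 231 and Socs1 at 251 and 274 in UT. Ccl17 had a called LPS-higher difference at 1 h (2.06) and 2 h (1.45) and none at 4 h (-0.40).

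**Figure D5:**
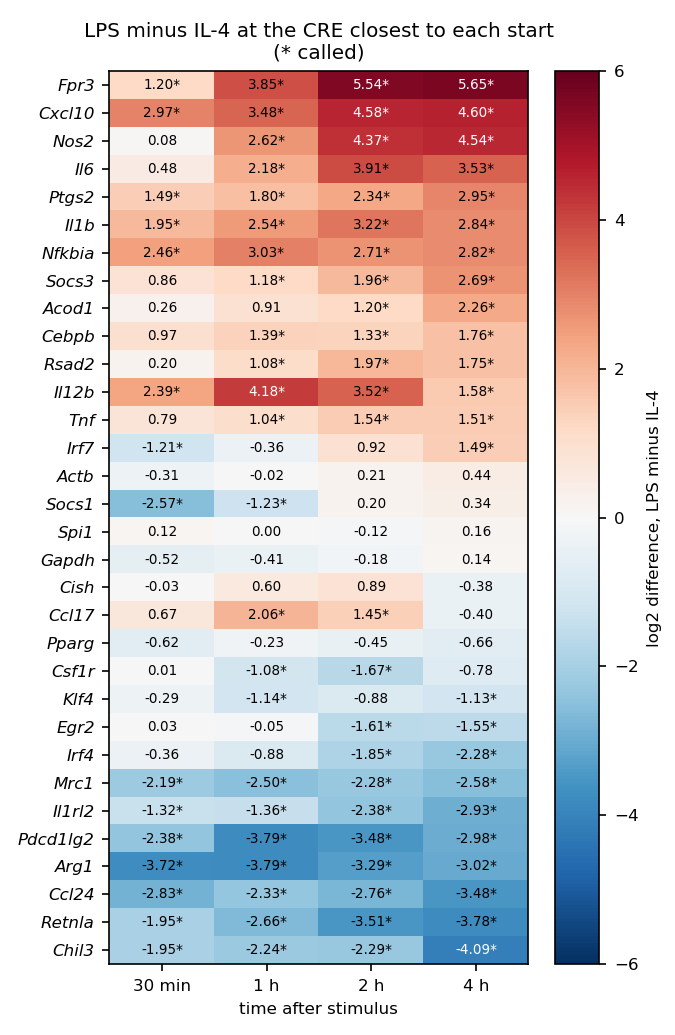
Log2 difference between LPS and IL-4 at 30 min, 1 h, 2 h and 4 h (columns) at the CRE closest to the start of 32 genes (rows, ordered by the difference at 4 h), in red where LPS was higher and in blue where IL-4 was higher, with an asterisk where limma called it. Nos2 moves from 0.08 to 4.54 and Irf7 from -1.21 to 1.49, while Arg1 stays between -3.79 and -3.02.

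In cells pre-treated with a CKI the directions were kept in the mean over CKIs, though not in every CKI. Within each of 52 CKIs with an LPS and an IL-4 library at 4 h, the difference was taken, and the mean over CKIs was tested with limma. The CKIs are different drugs and not replicates of a condition, so these calls rest on the spread between drugs. This called 6610 CREs (11.2%) higher after LPS and 5330 (9.0%) higher after IL-4. Of the vehicle calls 59.8% were called in the same direction, which is 97.7% of the inhibitor calls, and 0 CREs were called in opposite directions. The mean over CKIs had the sign of the vehicle difference at 10576 of the 10584 LPS-higher CREs and 8935 of the 8941 IL-4-higher ones. The sizes were smaller, with medians of 1.16 and -1.08 beside 1.84 and -1.60. Within single CKIs, the share of LPS-higher CREs with a positive difference ranged from 55.33% to 99.55% (median 94.28%). The share of IL-4-higher CREs with a negative difference ranged from 53.13% to 99.16% (median 93.54%). Every CKI had the same sign at 18.7% of the LPS-higher and 27.4% of the IL-4-higher CREs. Among them were Nos2 (median over CKIs 3.54), Cxcl10 (2.86), Il6 (2.36), Arg1 (-2.23), Mrc1 (-1.74) and Ang6 (-5.08), each in the vehicle direction in 52 of 52 CKIs. The CRE 0.511 kb from the start of Il12b kept its direction in 43 of 52.

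Single CKIs differed in how much of the division they showed, with 1 library per stimulus for most of them and so no replicate error. The median difference over the LPS-higher CREs ranged from 0.17 (X396) and 0.28 (Momelotinib) to 2.03 (Pacritinib), and over the IL-4-higher CREs from -1.52 (Mubritinib) to -0.10 (PH797804). Pacritinib, an inhibitor of JAK2, had 2.03 on the LPS side and -0.46 on the IL-4 side, and Ruxolitinib, an inhibitor of JAK1 and JAK2, 1.77 and -0.92. The other JAK inhibitors were Tofacitinib (1.76 and -1.21), Filgotinib (0.95 and -1.07), BMS911543 (0.84 and -1.15) and Momelotinib (0.28 and -1.32). The medians over all CKIs were 1.22 and -1.18, so the JAK inhibitors did not share 1 pattern. Library contrast, the median over the 10% of CREs with the highest vehicle level divided by that over the lowest 10%, is given beside them. It was 84.6 in the lowest of the 4 vehicle libraries. The CREs were ranked by the mean of these same 4 libraries, which raises the vehicle contrast, so it is not a like-for-like reference for the CKIs. In the lower library of each CKI it was 5.21 for X396, 4.03 for Momelotinib, 4.71 for Pacritinib, 3.01 for PH797804 and 10.9 for Ruxolitinib. For Tofacitinib it was 29.7, for Filgotinib 13.7 and for BMS911543 7.52, with a median of 12.1 over CKIs. The part of contrast in the values of single CKIs was not tested.

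The CREs with the highest values among those called were broad ones. Toward LPS, Pgs1, next to Socs3, had 4380 and 4144 after LPS and 971 and 919 after IL-4 (2.17, SE 0.06), Mid1 4631 and 4158 against 1139 and 1098 (1.97), Rassf4 3833 and 3347 against 1783 and 1755 (1.02), Lcp1, the actin-bundling plastin of leukocytes, 2839 and 2652 against 807 and 843 (1.73) and Mllt6 2660 and 2777 against 1003 and 1007 (1.43). Rassf4 lost its call under quantile normalization (0.56), with libraries centred on their median (0.97) and without LPS replicate 1 (0.92), and 53.7% of the words of the Mid1 CRE are repeated in mm10. Toward IL-4 they were Rab8b, with 2415 and 2216 after IL-4 and 738 and 612 after LPS (-1.78), Ang, a CRE 211 kb from Bcl2l11 with 2133 and 1899 against 475 and 305 (-2.39), Gpr146 (-1.81) and the phosphatase gene Ptpre with 1812 and 1702 against 757 and 655 (-1.31). At these values the groups were separated by several times the distance between replicates, so differences near the size limit could be called.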

How the data were processed

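H3K27ac ChIP-seq libraries of mouse BMDMs were analysed from 1 deposited table. Per the labels and methods, adapters were removed by the authors, who shortened single reads to 51 bases, mapped them to mm10 with ShortStack (the submitters' processing notes name Bowtie and SAMtools), counted reads at ATAC-seq peaks and scaled libraries on invariant peaks. The deposited values are normalized read counts rounded to whole numbers, handled as a score, so no count model was used. Of 564 columns 130 were used, each matched to its sample by title. Values were transformed as log2(value + 5), which understates changes of low CREs, and fitted with limma 3.58.1 (R 4.3.3, mean trend) over the 16 stimulated DMSO libraries in 8 groups, with two-sided moderated tests and Benjamini-Hochberg adjustment over all 59190 CREs. Residual degrees of freedom were 8, and the spread shared between CREs added 26.6. On simulated data the procedure recovered 72% of 200 changed CREs and called 1 unchanged CRE. The simulated spread between replicates was set in advance and not estimated from these libraries. Reads per library were estimated from the spacing of values.

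CREs were assigned to the nearest start of a protein-coding gene (GENCODE M21, mm10). Named CREs were the 12 largest called ones per direction, up to 4 per gene list, the one closest to the start of each of 33 genes, those of the 3 longest runs per direction, the 5 called ones of highest value per direction and those holding the qPCR control regions of the study; exceptions are said to be such, and some named genes are not reported here. The contrast, lists, motifs and genes were chosen with earlier results of these data known. Sequences are from RefSeq's GRCm38 assembly (mm10). Motifs were searched in the central 300 bases of each CRE. Alternatives changed the pseudocount, the filter on low values, the libraries in the fit, the scaling, the trend, the replicate block, the thresholds and single replicates.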

Additional observations from a re-analysis of the deposited data

Results flagged for a closer look

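The change of the LPS minus IL-4 difference between 30 min and 4 h was tested as an interaction, and the results that passed are listed here because the same contrast gave different values at these times. Over all CREs, the LPS minus IL-4 difference changed toward LPS at 7180 and toward IL-4 at 3196 (6130 and 4866 under quantile normalization), and 482 were called in opposite directions at 30 min and 4 h. At the CREs closest to the starts of 33 genes, 16 changes passed, where 12.1% of all CREs changed toward LPS and 5.4% toward IL-4. Among those toward LPS were 4.46 at the CRE of Fpr2 and Fpr3, 4.46 at Nos2, 3.05 at Il6, 2.90 at Socs1, 2.69 at Irf7, 2.00 at Acod1, 1.83 at Socs3, 1.63 at Cxcl10, 1.54 at Rsad2 and 1.46 at Ptgs2. Toward IL-4 they were -2.14 at the CRE closest to Chil3, -1.92 at Irf4, -1.83 at Retnla, -1.61 at Il1rl2 and -1.58 at Egr2. Of these genes, Irf7 was called in opposite directions at the times compared. Over all 125 named CREs, 74 had a called change, to be read beside the same shares of all CREs. Many of the 125 were named for a large difference at 4 h, so a change since 30 min is partly set by the choice. Groups of 2 libraries are too small to look for a library that stands apart.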

How the results depend on the processing

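Every count of called CREs at 4 h, 30 min, 1 h and 2 h and in inhibitor-treated cells stayed within 1.5 times its main value under all alternatives tried. At 4 h the total of 19525 ranged from 14611 (pseudocount 20) to 24528 (absolute log2 difference over 0.5), and was 17237 with the 4 libraries of 4 h alone, of which 17219 were called in the same direction in the main fit. Leaving out 1 library gave 17525 to 17803 in all, 8815 to 10164 toward LPS and 7639 to 8743 toward IL-4 at 4 h. It gave 12797 to 13789 at 30 min (5002 to 5905 and 7031 to 8748), 15384 to 15908 at 1 h (7496 to 8659 and 7165 to 8011) and 18923 to 19443 at 2 h (9757 to 10281 and 8642 to 9236). For the change from 30 min to 4 h it gave 8824 to 9725 (5815 to 7267 upward and 2402 to 3235 downward). A left-out library leaves 1 in its group, assumed to vary like the others. One count moved by more than 1.5 times, the downward changes from 30 min to 4 h, from 3196 to 4866 under quantile normalization, which also moved the median change over all CREs from 0.05 to -0.11. The cause was not tested. Of the 125 named CREs, 117 kept direction and call at 4 h under every alternative in which they were tested. Spi1 (-0.25) and Gapdh (-0.0649) reversed under quantile normalization, and the 6 others are given beside their values. A fit with the replicate number as a block called 19481 CREs at 4 h, 19431 of them as in the main fit. The numbers did not pair the libraries, as judged over CREs with a mean of at least 10 across the stimulated DMSO libraries. Deviations of same-numbered LPS and IL-4 libraries at 4 h correlated with r = 0.03, and r lay between -0.08 and 0.07 over 28 pairs of groups. With the central 600 bases, the STAT6 shares were 47.2% in the top IL-4 set, 19.1% in the top LPS set and 17.8% in all distal CREs. Limited to 50 kb, the gene lists kept the side on which most of their calls lay. Of the 8864 CREs with a mean under 10 over the 4 libraries, 328 were called, and the parts of depth and of the pseudocount in this were not tested.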
